A study of Mus musculus with 6 samples.

Results

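Expression of 10 genes of the osteoclast and of the axis of RANKL (receptor activator of nuclear factor kappa B ligand) was examined in the dental pulp of WT and *Mmp13*-/- mice. Members were found by gene symbol, from a list drawn up with earlier results of these data known, and the 10 symbols each matched 1 of the 53342 genes in the table. They were *Tnfsf11*, *Tnfrsf11a* and *Tnfrsf11b* for the axis itself and *Oscar*, *Calcr*, *Dcstamp*, *Ocstamp*, *Atp6v0d2*, *Acp5* and *Ctsk* for the osteoclast. RNA sequencing was carried out on pulp from 3 WT mice and 3 homozygous *Mmp13*-/- mice (MMP13KO), all of the C57BL/6 strain and 3 months old, and the mice of the study were male. WT samples were numbered 2, 4 and 5 and *Mmp13*-/- samples 1, 2 and 6, and values are given below in that order. The sample labels name molars and extraction on a column kit, whereas the study's methods name incisors and TRIzol, and the tooth was not settled here. The knockout of *Mmp13*, which encodes a collagenase that cleaves fibrillar collagen, was not restricted to a cell type, so that bone and blood cells carried it as well as the pulp.

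Osteoclasts are multinucleated cells of the monocyte lineage that dissolve bone mineral with acid and digest its collagen. RANKL, made by bone, stromal and immune cells, binds RANK on precursors and drives them to differentiate and fuse, while osteoprotegerin (OPG) is a soluble decoy that holds RANKL away from RANK. In teeth, cells of this kind clear a path for eruption and resorb roots, and healthy pulp is not a tissue in which they are usually found.

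Short promoter windows are printed for 4 of the genes. They show matches to letters linked to known osteoclast transcription factors ahead of the resorption enzymes *Acp5* and *Ctsk* and the receptor *Oscar*, and the region ahead of the ligand gene *Tnfsf11*. Each is the 250 bases before a RefSeq start, in build GRCm38.p6, written 5′ to 3′ on the strand of the gene. Capitals mark matches on either strand to CATGTG (MITF), GAGGAA (PU.1), GGAAA (NFAT), TGANTCA (AP-1) or the NF-kB letters, which are GGG, any 2 bases and TTTCC.
Acp5, chr9:22130599-22130848, minus strand: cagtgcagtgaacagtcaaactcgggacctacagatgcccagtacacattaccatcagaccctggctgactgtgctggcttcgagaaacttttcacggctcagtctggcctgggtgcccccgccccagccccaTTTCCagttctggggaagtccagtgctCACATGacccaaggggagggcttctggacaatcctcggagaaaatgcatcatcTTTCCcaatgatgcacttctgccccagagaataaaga
Ctsk, chr3:95498960-95499209, plus strand: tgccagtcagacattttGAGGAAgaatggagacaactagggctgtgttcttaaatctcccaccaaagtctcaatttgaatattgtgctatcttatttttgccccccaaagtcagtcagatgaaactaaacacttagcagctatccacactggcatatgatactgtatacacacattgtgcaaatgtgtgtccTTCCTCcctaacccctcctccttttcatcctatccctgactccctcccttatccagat
Oscar, chr7:3616158-3616407, minus strand: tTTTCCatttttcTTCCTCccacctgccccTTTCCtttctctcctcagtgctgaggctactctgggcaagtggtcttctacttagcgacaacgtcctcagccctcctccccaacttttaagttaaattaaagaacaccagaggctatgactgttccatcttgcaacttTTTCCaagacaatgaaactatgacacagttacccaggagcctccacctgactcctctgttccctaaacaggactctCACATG
Tnfsf11, chr14:78308044-78308293, minus strand: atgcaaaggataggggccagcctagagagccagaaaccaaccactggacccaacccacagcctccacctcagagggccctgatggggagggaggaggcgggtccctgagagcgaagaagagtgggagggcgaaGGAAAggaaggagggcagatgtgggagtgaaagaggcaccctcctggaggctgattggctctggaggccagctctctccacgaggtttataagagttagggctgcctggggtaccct
The last bases of the *Acp5* window lie in an exon of another *Acp5* transcript, and the other 3 windows overlap no exon of GENCODE M21. The reference table held 9 such windows for 6 members, with 3 for *Acp5*, 2 for *Calcr* and 1 each for *Ctsk*, *Oscar*, *Tnfrsf11a* and *Tnfsf11*. The MITF letters stood in 2 of these 9 windows, those shown for *Acp5* and *Oscar*, and in 12.3% of all 32851 windows of the same length. The PU.1 letters stood in 2, those shown for *Ctsk* and *Oscar*, against 23.3% of all windows. The NFAT letters stood in 6 of 9, against 55.6%, and the AP-1 and NF-kB letters were in none, against 6.75% and 1.41%. The *Acp5* windows not shown held NFAT letters only. GGAAA shares letters with GAGGAA and is contained, on the other strand, in the NF-kB letters, so these matches can overlap. A match is a description of the letters in the window and was not tested as a binding site. *Dcstamp*, *Ocstamp*, *Atp6v0d2* and *Tnfrsf11b* are named only.

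Libraries held 28442936 to 29980236 counts in WT and 21561420 to 26547121 in *Mmp13*-/-. *Mmp13* itself had 1010, 1072 and 826 normalized counts in the WT samples and 8.68, 30.2 and 63.4 in the knockout samples, with a log2 fold change, *Mmp13*-/- over WT, of −4.96 (SE 0.46, adjusted p = 7.67e-05 from the quasi-likelihood test of edgeR after Benjamini-Hochberg adjustment, as for every adjusted p given here unless another tool is named). Normalized counts are estimated counts per library size, scaled with TMM factors and returned to the size of the mean library. *Mmp13*-/- sample 6 stood apart from the others, since 53.7% of its counts fell on 10 genes, against 22.6% to 27.2% in the other 5 samples. Odorant and vomeronasal receptor genes, which pulp is not known to use, took 17.9 to 20.8 CPM (counts relative to the library total) in WT and 308, 357 and 1198 in *Mmp13*-/-, and their counts per kilobase of exon gave each sample a background rate. At that rate, background made up 0.254% of the *Ctsk* counts and 0.753% of the *Acp5* counts in sample 6, but 40.02% of the *Calcr* counts. Fold changes after subtraction of this rate are given for each member.

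Genotypes differed widely, and counts of the 10 genes have to be read against that. Of 24534 genes tested, 27.3% were higher in *Mmp13*-/- and 24.3% lower at an adjusted p under 0.05, and 20.4% were higher by over 2-fold. All 10 members were tested, all 10 were higher in *Mmp13*-/- and 9 were higher by over 2-fold. In all 10 the lowest *Mmp13*-/- sample lay above the highest WT sample, as it did in 31.9% of the genes tested. *Oscar*, *Calcr* and *Dcstamp* passed the filter on low counts only through their *Mmp13*-/- samples, so that being tested already rested on the higher genotype, and the other 7 passed in WT as well. The median log2 fold change of the 10 was 1.76, against 0.10 over all genes tested. A correction of each sample for the GC content of transcripts gave 2.37 against 0.40, subtraction of the background rate gave 1.84 against 0.04, and both together gave 2.17 against 0.24. The 10 were again called higher after the GC correction (30.4% of all genes tested, with 7.96% lower) and after background subtraction (25.1% of all genes then tested), and 9 with both together (24.7%). The split of all called genes also moved with the scaling, as 53.0% of them were higher with TMM factors, 63.9% with upper-quartile factors, 69.2% with total counts alone and 79.2% after the GC correction. In bulk tissue, more cells of a type and more RNA per cell cannot be told apart.

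**Figure D1:**
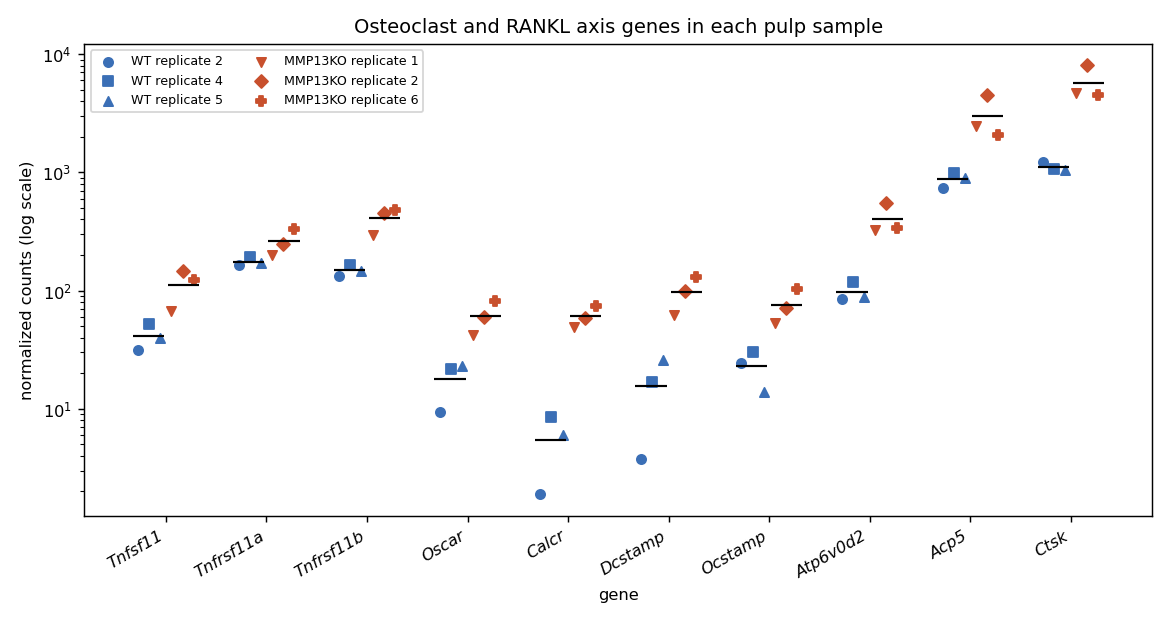
Normalized counts (log axis) of the 10 genes in each of the 3 WT samples (blue) and 3 *Mmp13*-/- samples (orange), with a black line at the mean of each genotype. The 3 orange points lie above the 3 blue points for every gene, by the narrowest margin for *Tnfrsf11a* (199.7 against 192).

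*Tnfsf11* encodes RANKL, the ligand, and lies on chr14:78277445-78308043 (GENCODE M21, GRCm38, as for all gene positions here). Its normalized count was 31.2, 51.7 and 39.9 in WT and 66.9, 145 and 122 in *Mmp13*-/-. *Mmp13*-/- sample 2 was the highest and sample 1 was nearest to WT, without overlap. The means were 41.0 ± 10.3 (SD, n = 3) and 111 ± 40.3 (SD, n = 3), a 2.71-fold difference and a log2 fold change of 1.44 (SE 0.34, adjusted p = 0.00573). It was 1.38 after the GC correction and 1.52 after background subtraction, and 1.13 to 1.65 when any 1 sample was left out.

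*Tnfrsf11a* encodes RANK, the receptor on precursors and osteoclasts, and lies on chr1:105780718-105847981. Its normalized count was 163, 192 and 171 in WT and 199.7, 249.6 and 334 in *Mmp13*-/-. Both genotypes nearly met, with the highest WT sample just under the lowest *Mmp13*-/- sample. WT averaged 175 ± 14.8 (SD, n = 3) and *Mmp13*-/- 261 ± 68.0 (SD, n = 3), 1.48-fold higher, with a log2 fold change of 0.57 (SE 0.21, adjusted p = 0.0435), the smallest of the 10. After background subtraction it was 0.63 (adjusted p = 0.0353). The call on the counts as deposited was lost, with adjusted p up to 0.145, when WT sample 2, 4 or 5 or *Mmp13*-/- sample 2 or 6 was left out, and the log2 fold change then ranged from 0.36 to 0.59. It also missed the threshold with DESeq2 (adjusted p = 0.0962), with limma on the deposited log2 values (adjusted p = 0.117) and with background subtraction and GC correction together (adjusted p = 0.0510). The same held with total counts without factors (adjusted p = 0.0834) and without the filter on low counts (adjusted p = 0.0950).

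*Tnfrsf11b* encodes OPG, the decoy receptor, and lies on chr15:54250619-54278484. Its normalized count was 133, 164 and 148 in WT and 297, 456 and 478 in *Mmp13*-/-. Each *Mmp13*-/- sample was well above every WT sample, and WT samples were close together. Means of 148 ± 15.3 (SD, n = 3) and 411 ± 99.0 (SD, n = 3) differed by 2.76-fold, with a log2 fold change of 1.47 (SE 0.21, adjusted p = 0.000415). The decoy thus rose by nearly the same factor as its ligand, and the log2 fold change was 1.202 after the GC correction and 1.61 after background subtraction.

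Ligand and decoy were then set against each other within each sample, a ratio that does not depend on library scaling. *Tnfsf11* stood at 23.4%, 31.6% and 27.0% of the *Tnfrsf11b* count in WT and at 22.5%, 31.9% and 25.5% in *Mmp13*-/-. WT and knockout samples overlapped throughout, and the lowest and the highest of the 6 ratios were both from *Mmp13*-/- samples. On the log2 scale, with 0.5 added to each normalized count, WT had a mean ratio of −1.87 ± 0.21 (SD, n = 3) and *Mmp13*-/- of −1.92 ± 0.25 (SD, n = 3). The difference, *Mmp13*-/- minus WT, was −0.05, with a 95% interval from −0.58 to 0.48 (t interval from the pooled variance). An exact two-sided permutation test gave p = 0.8, where 3 samples against 3 can give no p under 0.1. No difference of any size could therefore pass that test at 0.05, and the interval holds differences in both directions. The direction of this small difference turned to 0.18 after the GC correction (exact permutation p = 0.5), to 0.057 without WT sample 4 and to 0.061 without *Mmp13*-/- sample 1.

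**Figure D2:**
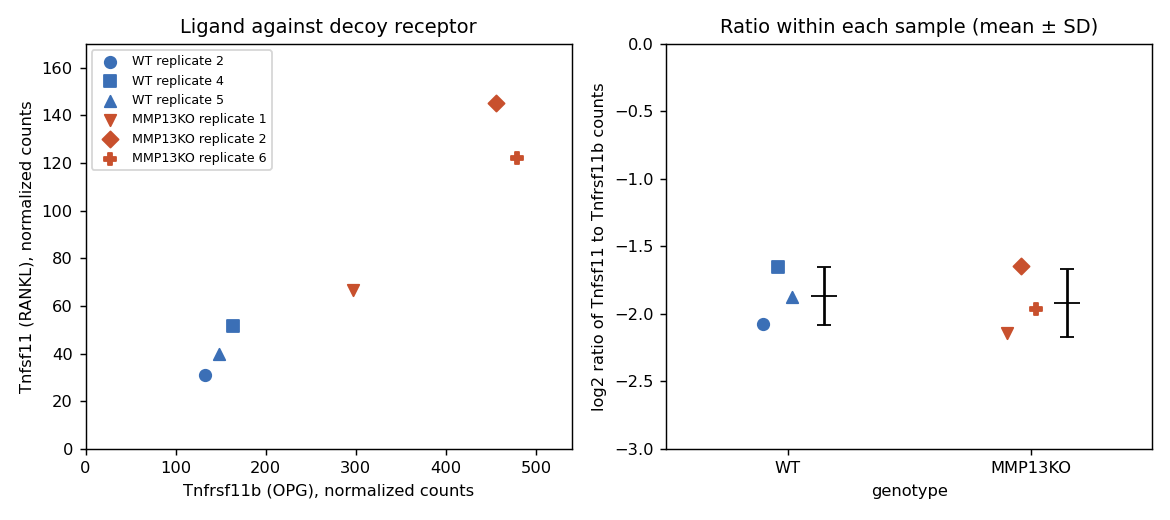
Left, normalized counts of *Tnfsf11* against those of *Tnfrsf11b* in each sample; right, the log2 ratio of the 2 counts in each sample with the mean and SD of each genotype (n = 3). Both genes were higher in the *Mmp13*-/- samples, and the ratios of the genotypes overlap, with means of −1.87 in WT and −1.92 in *Mmp13*-/-.

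The receptor genes *Oscar* and *Calcr* were scarce in WT pulp, unlike *Tnfrsf11a*. *Oscar* (chr7:3609813-3616157), an immunoglobulin-like receptor for collagen that gives the costimulatory signal next to RANK, was at 9.44, 21.6 and 22.96 normalized counts in WT and at 41.7, 59.4 and 80.8 in *Mmp13*-/-. WT sample 2 was the lowest and *Mmp13*-/- sample 6 the highest. Its mean rose from 18.02 ± 7.45 (SD, n = 3) to 60.6 ± 19.6 (SD, n = 3), 3.33-fold, with a log2 fold change of 1.73 (SE 0.43, adjusted p = 0.00761). The background rate accounted for 17.5% of its counts in *Mmp13*-/- sample 6, and subtraction left the log2 fold change at 1.75. *Calcr* (chr6:3685680-3764714), the calcitonin receptor through which the hormone arrests resorption, was also scarce in WT, at 1.89, 8.47 and 5.99 normalized counts in WT and 49.5, 58.5 and 74.5 in *Mmp13*-/-. These values rest on estimated counts of 2, 9 and 6 in WT against 56.5, 63.6 and 47.0 in *Mmp13*-/-, and no WT sample came near the knockout samples.

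The *Calcr* difference was the largest of the 10, from 5.45 ± 3.32 (SD, n = 3) to 60.8 ± 12.6 (SD, n = 3), or 10.9-fold, with a log2 fold change of 3.44 (SE 0.51, adjusted p = 0.000504). Of the genes tested, 4.797% had a larger log2 fold change. The expected background made up 10.4%, 10.8% and 40.02% of its counts in *Mmp13*-/- samples 1, 2 and 6. After subtraction the highest sample was no longer sample 6 but sample 2, and the log2 fold change was 3.24 (adjusted p = 0.000649). *Mir653* and *Mir489* lie within *Calcr* on the same strand and overlap none of its exons.

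Members of the fusion machinery were higher as well. *Dcstamp* (chr15:39745930-39760938) and *Ocstamp* (chr2:165393760-165400405) encode membrane proteins that precursors need to fuse into multinucleated cells. *Dcstamp* stood at 3.78, 16.9 and 25.96 normalized counts in WT and at 61.7, 99.6 and 129.9 in *Mmp13*-/-, and *Ocstamp* at 24.6, 30.1 and 13.98 against 53.0, 71.3 and 103. WT samples of *Dcstamp* were widely spread, with sample 2 far below the others, while for *Ocstamp* the lowest was WT sample 5, and *Mmp13*-/- sample 6 was the highest for both. For *Dcstamp* the means were 15.6 ± 11.2 (SD, n = 3) and 97.1 ± 34.2 (SD, n = 3), 6.18-fold apart, with a log2 fold change of 2.63 (SE 0.54, adjusted p = 0.00288). For *Ocstamp* they were 22.9 ± 8.19 (SD, n = 3) and 75.8 ± 25.3 (SD, n = 3), 3.26-fold apart, with a log2 fold change of 1.71 (SE 0.39, adjusted p = 0.00471). *Ocstamp*, whose transcripts are rich in G and C, had a log2 fold change of 2.502 after the GC correction, and 27.0% of its counts in *Mmp13*-/- sample 6 were expected from background. After background subtraction the log2 fold change was 2.67 for *Dcstamp* and 1.61 for *Ocstamp*.

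*Atp6v0d2* (chr4:19876841-19922605) encodes a subunit of the vacuolar proton pump that osteoclasts use, and is needed for their fusion. Its normalized count was 84.1, 119 and 87.9 in WT and 324, 553 and 337 in *Mmp13*-/-. *Mmp13*-/- sample 2 was the highest, with samples 1 and 6 close together and far above WT. The means were 96.8 ± 18.9 (SD, n = 3) and 405 ± 129 (SD, n = 3), a 4.18-fold difference, with a log2 fold change of 2.06 (SE 0.25, adjusted p = 0.000199). It was 1.61 after the GC correction and 2.19 after background subtraction, and background came to no more than 6.12% of its counts in any *Mmp13*-/- sample.

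The resorption enzymes were the most abundant members by far. *Acp5* (chr9:22126727-22135711) encodes tartrate-resistant acid phosphatase (TRAP), the classical histochemical stain of osteoclasts, which some macrophages also make. Its normalized count was 734, 984 and 903 in WT and 2454, 4475 and 2053 in *Mmp13*-/-. *Mmp13*-/- sample 2 was the highest and sample 6 the nearest to WT, without overlap. The mean rose from 874 ± 128 (SD, n = 3) to 2994 ± 1298 (SD, n = 3), or 3.43-fold, with a log2 fold change of 1.78 (SE 0.27, adjusted p = 0.000629). The GC correction raised it to 2.71 (adjusted p = 0.000235), the largest shift by that correction among the members, whose transcripts range from 41.6% GC in *Atp6v0d2* to 55.9% in *Acp5*, and background subtraction left it at 1.93. An antisense transcript, 6530413G14Rik, shares 137 exon bases with *Acp5*, and since the sources do not say whether the counting used strand, reads there cannot be told apart.

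*Ctsk* (chr3:95499256-95509362) encodes cathepsin K, the protease that digests bone collagen in the resorption pit and that some fibroblasts also make. Its normalized count was 1215, 1062 and 1057 in WT and 4691, 8033 and 4542 in *Mmp13*-/-. WT samples were almost level, and the lowest *Mmp13*-/- sample was 3.74-fold above the highest of them. The mean rose from 1111 ± 89.4 (SD, n = 3) to 5755 ± 1974 (SD, n = 3), or 5.18-fold, with a log2 fold change of 2.37 (SE 0.24, adjusted p = 9.9e-05), the smallest adjusted p of the 10. It was 2.70 after the GC correction, 2.53 after background subtraction and 1.997 to 2.52 when any 1 sample was left out.

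**Figure D3:**
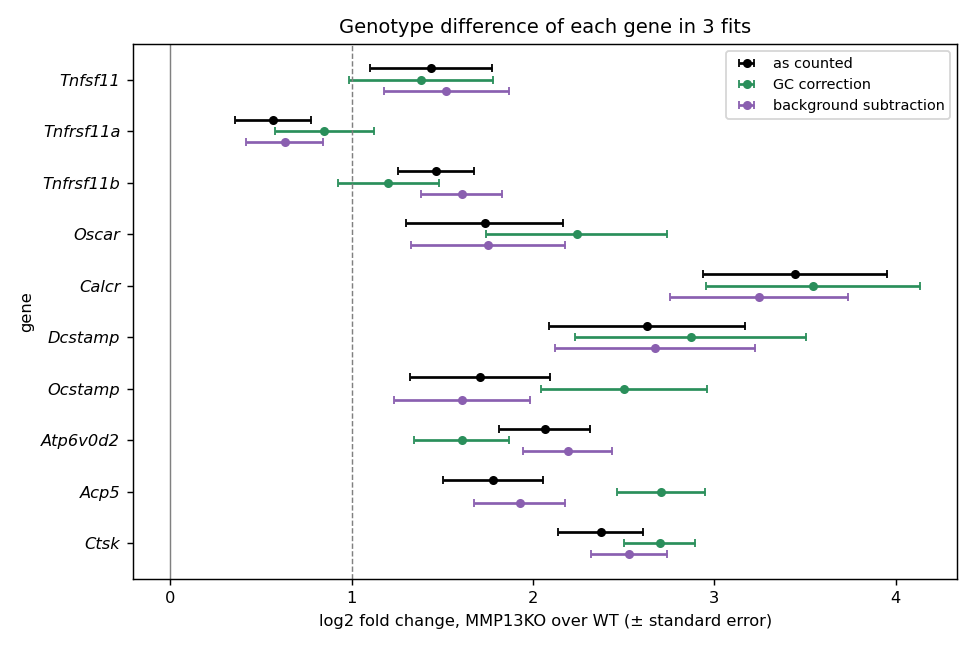
Log2 fold change, *Mmp13*-/- over WT, of each gene with its SE, from the counts as deposited (black), after the GC correction (green) and after background subtraction (purple), with a dashed line at 2-fold. *Tnfrsf11a* stays under 2-fold in all 3 fits, *Calcr* is the highest in each, and the GC correction moves *Acp5* most, from 1.78 to 2.71.

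Levels were also compared between genes per length, in CPM per kilobase of exon. Here, in the marker lists and in the patterns of similar genes, CPM was taken on the library size scaled with TMM factors. In WT, *Ctsk* was the highest at 26.9, followed by *Acp5* at 15.7, *Tnfrsf11b* at 1.92, *Atp6v0d2* at 1.30, *Tnfrsf11a* at 1.07, *Tnfsf11* at 0.669, *Oscar* at 0.357, *Ocstamp* at 0.229, *Dcstamp* at 0.213 and *Calcr* at 0.0509. The samples of *Atp6v0d2* and *Tnfrsf11a* overlapped, as did those of each pair of neighbours from *Oscar* down to *Calcr*, so their order in WT was not resolved. In *Mmp13*-/- the same measure ran from 139 for *Ctsk* and 53.9 for *Acp5* to 0.568 for *Calcr*. There *Atp6v0d2* (5.45) had come above *Tnfrsf11b* (5.33), *Tnfsf11* (1.82) above *Tnfrsf11a* (1.60) and *Dcstamp* (1.33) above *Oscar*, although the samples of each of these pairs overlapped. Both resorption enzymes therefore exceeded the ligand, the receptors and the fusion genes in either genotype. Among the *Mmp13*-/- samples, sample 6 was the highest for 6 members and sample 2 for 4. After subtraction of the background rate this became 5 and 5.

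Other genes of the osteoclast were taken from 5 lists, and as counted most were not higher. Counts in these lists stand beside 27.3% of all genes tested that were higher and 24.3% that were lower, or 30.4% and 7.96% after the GC correction. The median log2 fold change over all genes tested was 0.10 as counted and 0.40 after the GC correction. Values after that correction, here and in the marker lists, are to be read against 0.40. In the list of RANK signalling and osteoclast transcription factors, 1 of 23 tested genes was higher and 15 were lower, with a median log2 fold change of −0.65. *Nfatc1*, the master transcription factor of osteoclast formation, fell by 0.70 on the log2 scale (adjusted p = 0.00278), and *Fos*, an AP-1 subunit required ahead of it, fell by 1.23 (adjusted p = 0.0248), although its WT and knockout samples overlapped. *Traf6*, the adaptor of RANK, had a log2 fold change of 0.24 (adjusted p = 0.161), and *Spi1*, which encodes the myeloid factor PU.1, of 0.52 (adjusted p = 0.109). The higher gene was *Chuk*, a kinase of the NF-kB pathway, which, like the other genes given for a count of 5 or fewer, was named after its values were seen. After the GC correction 3 of the 23 were higher and 4 lower, and the median was 0.08. The 3 were *Spi1* at 1.68 (adjusted p = 0.00144), *Irf8* at 0.95 (adjusted p = 0.00286) and *Rela*, which turned from lower (−0.84) to higher (0.36, adjusted p = 0.0171). *Rela* was then still under the median of all genes tested, as was the median of the list. *Chuk* (0.22, adjusted p = 0.144), *Nfatc1* (0.08, adjusted p = 0.597) and *Fos* (−0.57, adjusted p = 0.343) no longer passed the test, and *Fos* also missed it after background subtraction (−1.08, adjusted p = 0.0594).

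Immunoreceptor costimulation, the pathway that *Oscar* feeds, had 10 of 15 genes higher and none lower, with a median of 0.81. *Tyrobp*, which encodes the adaptor DAP12, rose from 60.5 ± 6.72 (SD, n = 3) to 473 ± 126 (SD, n = 3) normalized counts, a log2 fold change of 2.97 (adjusted p = 3.96e-05). *Fcer1g*, the adaptor to which OSCAR couples, rose by 0.82 (adjusted p = 0.0137) and the kinase gene *Syk* by 0.81 (adjusted p = 0.00711), while *Trem2* stood at 0.66 (adjusted p = 0.0681). These genes are shared with macrophages and other myeloid cells, and *Sirpb1a*, *Sirpb1b* and *Sirpb1c*, all among the 10, are close copies between which the counting could have split reads. After the GC correction 13 of the 15 were higher and none was lower.

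Acid secretion and attachment had 4 of 20 genes higher and 8 lower, with a median of −0.28. *Car2*, the carbonic anhydrase that supplies protons, rose by 1.08 (adjusted p = 0.0147), and the other higher genes were *Snx10* and the pump subunits *Atp6v1a* and *Atp6v1c1*. *Tcirg1*, the pump subunit of the ruffled border, fell by 0.47 (adjusted p = 0.0405) and *Clcn7*, its chloride partner, fell by 0.71 (adjusted p = 0.00358), with *Ostm1*, the partner of *Clcn7*, at 0.08 (adjusted p = 0.708). With the GC correction 9 were higher and 2 lower, and *Tcirg1* turned from lower to higher, at 0.67 (adjusted p = 0.00572), while *Clcn7* stood at 0.13 (adjusted p = 0.296). After background subtraction *Tcirg1* no longer passed the test (−0.33, adjusted p = 0.105). The proton pump subunit *Atp6v0d2*, a member, therefore moved in the opposite direction from *Tcirg1* as counted (2.06 against −0.47). After the GC correction both were higher, at 1.61 and 0.67.

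Growth factors of precursors and fusion partners had 3 of 13 genes higher and 1 lower, with a median of −0.01. The higher genes were *Itgam*, *Cd44* and *Ccr1*, which many leukocytes express. *Csf1*, the growth factor of macrophages and osteoclast precursors, fell by 0.47 (adjusted p = 0.0356), its receptor gene *Csf1r* stood at 0.44 (adjusted p = 0.0510), *Il34*, the other ligand of that receptor, at −0.39 (adjusted p = 0.186) and *Cx3cr1* at 0.03 (adjusted p = 0.921). After the GC correction 8 were higher and none lower, *Csf1r* at 1.26 (adjusted p = 0.000390) among them, and *Csf1* was at 0.36 (adjusted p = 0.0767). It did not pass after background subtraction either (−0.34, adjusted p = 0.0905).

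Regulators upstream of *Tnfsf11* and *Tnfrsf11b* had 2 of 20 tested genes higher and 8 lower, with a median of −0.24. The higher genes were *Il1b*, an inflammatory cytokine that induces RANKL, and *Sema3a*, a repressor of osteoclast formation. *Pth1r*, the receptor through which parathyroid hormone induces RANKL, fell by 1.10 (adjusted p = 0.000522), but stood at 0.17 (adjusted p = 0.340) after the GC correction. *Vdr*, the vitamin D receptor gene, had a log2 fold change of −0.22 (adjusted p = 0.229) and *Tnf* of 1.001 (adjusted p = 0.182), with *Mmp13*-/- sample 6 at 84.0 normalized counts and the other 5 samples at 28.3 or less. *Il6* was too scarce to be tested. The correction left 4 of the 20 higher and 2 lower.

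**Figure D4:**
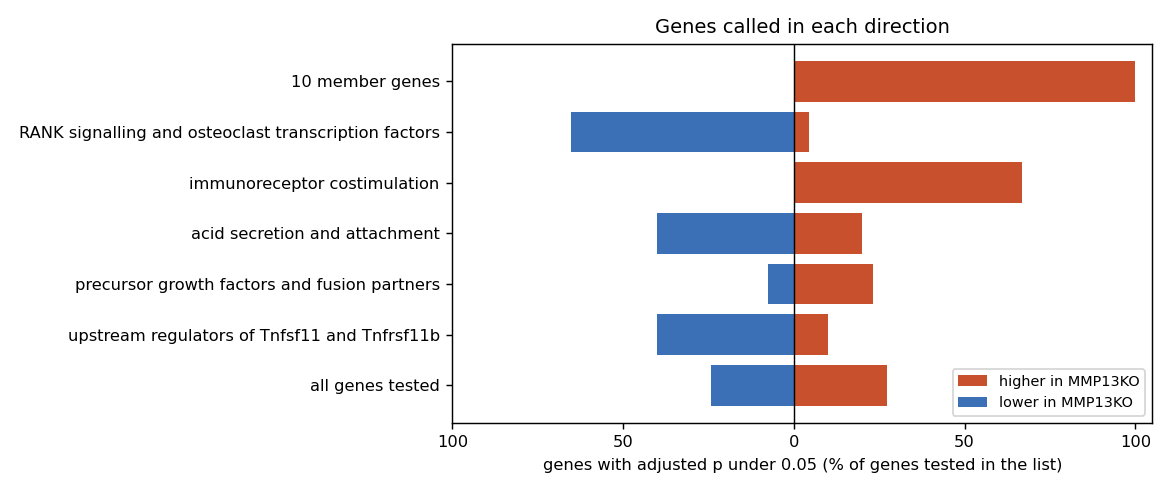
Share of tested genes with an adjusted p under 0.05 in each list, higher in *Mmp13*-/- to the right and lower to the left, from the counts as deposited, with all 24534 genes tested at the bottom. The 10 members (100% higher) were chosen with earlier results known, immunoreceptor costimulation has genes on the right only, and RANK signalling has 15 of 23 on the left, which became 4 of 23 after the GC correction.

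Markers of the cell types that the samples could hold were read from 7 further lists, of which no marker was at 0 in all samples. Their counts also stand beside 27.3% of all genes tested that were higher and 24.3% that were lower. After the GC correction these shares were 30.4% and 7.96%, and after background subtraction 25.1% were higher. The odontoblast and pulp list was summed at 56057 to 62778 CPM in WT and 17713 to 23313 in *Mmp13*-/-, with 2 of 13 genes higher and 5 lower. Such a sum weighs the most abundant genes most, and the median log2 fold change of the 13 was −0.44, or 0.01 after the GC correction. The list's defining genes were present in all samples. *Dspp*, the dentin sialophosphoprotein gene of odontoblasts, rose by 1.13 (adjusted p = 0.0370) and *Phex* by 1.68 (adjusted p = 0.00135), *Dmp1* stood at −0.22 (adjusted p = 0.292) and *Nes* fell by 1.21 (adjusted p = 0.000909). The GC correction left 4 of the 13 higher and 3 lower, with *Nes* at −0.31 (adjusted p = 0.175), and background subtraction left the counts at 2 and 5. Muscle genes were abundant too, at 42681 to 51990 CPM in WT and 8044 to 19440 in *Mmp13*-/-, with 6 of 8 lower, among them *Acta1* (−1.88, adjusted p = 0.00154), *Ckm* (−1.78, adjusted p = 0.00236), *Myh4* (−2.21, adjusted p = 0.00315) and *Myh1* (−1.40, adjusted p = 0.0106). After the GC correction 4 of the 8 were lower, with *Myh1* at −0.76 (adjusted p = 0.0505), and after background subtraction 6. Skeletal muscle is not a tissue of the pulp chamber.

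On the TMM-scaled library size, summed levels of blood cell markers were higher in the same samples as the members, and those of bone markers only narrowly so. The osteoblast and osteocyte list was at 939 to 1197 CPM in WT and 1219 to 1885 in *Mmp13*-/-, with 4 of 10 higher and 1 lower. The median log2 fold change of this list was 0.14, against 0.10 over all genes tested. It was 1.06 against 0.40 after the GC correction and 0.22 against 0.04 after background subtraction. The highest WT sum and the lowest knockout sum of this list nearly met, so that their order can depend on the TMM scaling. *Ibsp*, bone sialoprotein, rose by 1.56 (adjusted p = 0.000233), while *Bglap2* (−0.16, adjusted p = 0.547) and *Sost* (−0.20, adjusted p = 0.336) did not pass the test and *Alpl* fell by 0.68 (adjusted p = 0.0134). After the GC correction 6 of the 10 were higher, *Bglap2* (0.79, adjusted p = 0.0144) and *Sost* (0.85, adjusted p = 0.00356) among them, and none was lower, with *Alpl* at 0.29 (adjusted p = 0.139), whereas background subtraction left 4 higher and 1 lower. Macrophage and monocyte markers were at 127 to 146 CPM in WT and 328 to 577 in *Mmp13*-/-, with 8 of 12 higher and none lower. *Mrc1* rose by 1.76 (adjusted p = 0.000128), *Adgre1* by 1.38 (adjusted p = 0.000443) and *Cd163* by 1.12 (adjusted p = 0.00344), and *Cd68*, a lysosomal marker that osteoclasts share, was at 0.33 (adjusted p = 0.148). All 12 were higher after the GC correction and 10 after background subtraction, *Cd68* in both (1.03, adjusted p = 0.00260, and 0.47, adjusted p = 0.0447).

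Neutrophil markers, including genes of bone marrow precursors, were at 137 to 284 CPM in WT and 711 to 1741 in *Mmp13*-/-, with all 8 higher, among them *S100a9* (5.19, adjusted p = 3.96e-05), *S100a8* (4.90, adjusted p = 4.36e-05), *Elane* (1.53, adjusted p = 0.00158) and *Mpo* (1.23, adjusted p = 0.0197). B lineage markers were at 7.80 to 15.2 CPM against 41.0 to 59.8, again with all 8 higher, among them *Ms4a1* (3.39, adjusted p = 4.84e-05), *Cd79b* (2.56, adjusted p = 0.000182) and *Cd79a* (1.27, adjusted p = 0.00580). T cell markers were at 5.90 to 6.74 CPM against 19.05 to 21.9, with 6 of 8 higher, *Cd3e* (4.66, adjusted p = 0.000142), *Cd3d* (5.02, adjusted p = 0.00345) and *Cd3g* (1.77, adjusted p = 0.0353) among them and *Cd4* at 0.49 (adjusted p = 0.0547). The count of T cell markers called higher was 5 after the GC correction, without *Cd3g* (1.11, adjusted p = 0.233), and 4 after background subtraction, when *Cd3g* was not tested. All 8 neutrophil and all 8 B lineage markers were higher after either correction. Both marrow and blood carry such cells. The part of bone, marrow, blood and muscle in the higher counts of the 10 members was not tested, and it cannot be told apart from the genotype in these samples. Leaving out the sample with the most background, *Mmp13*-/- sample 6, left the other 9 members called higher and *Tnfrsf11a* at 0.36 (adjusted p = 0.136). Of all 24934 genes then tested, 6845 were called higher.

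**Figure D5:**
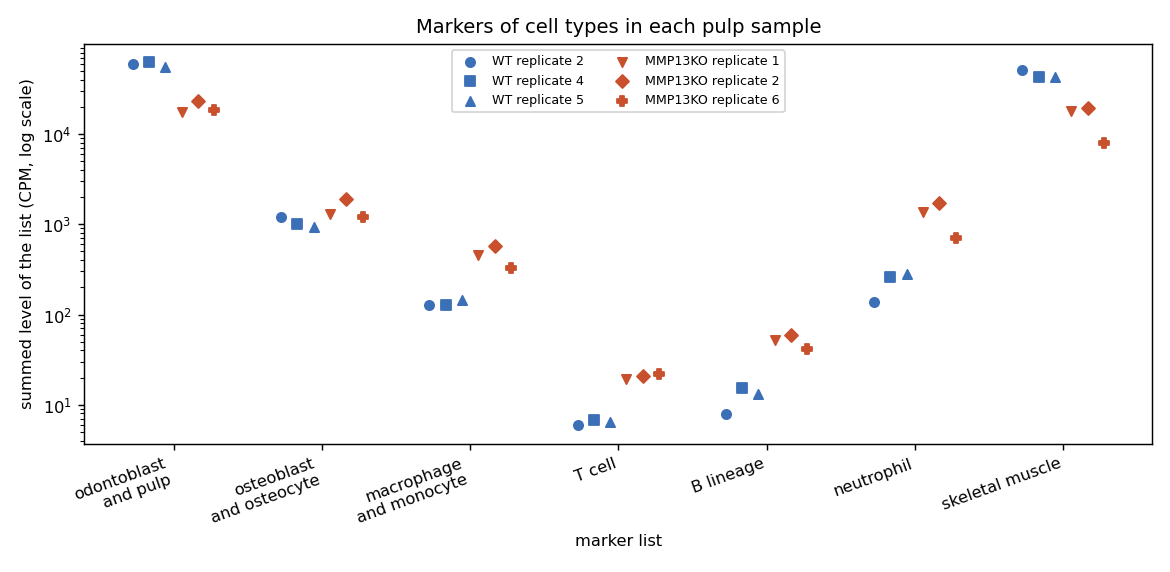
Summed CPM (log axis, on the TMM-scaled library size) of each marker list in each WT sample (blue) and *Mmp13*-/- sample (orange). The macrophage, T cell, B lineage and neutrophil sums are higher in every *Mmp13*-/- sample, and the osteoblast sum narrowly so (1219 against 1197). The odontoblast and skeletal muscle sums are lower in every one. In a sum the most abundant genes weigh most, and 2 of the 13 odontoblast and pulp genes were higher.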

How the data were processed

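Pulp of 3 WT and 3 *Mmp13*-/- mice was sequenced, and the labels call the samples biological replicates. The estimated counts per gene were made and deposited by the authors in Strand NGS, and the submitters' processing notes name mm10 and DESeq. Aligner settings, annotation release and strand use are not given in the sources used here. The deposited log2 values, centred per gene by the authors, were recomputed from those counts with size factors and matched within 0.02 for 100% of values. Columns of the authors' own comparisons were not used.

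Estimated counts, which carry fractions, were rounded to whole numbers and fitted in R 4.3.3 with edgeR 4.0.16 (quasi-likelihood test, TMM factors, its filter on low counts by genotype, Benjamini-Hochberg adjustment over all genes tested, no covariate). A gene was called at an adjusted p under 0.05. The study's own gene-by-gene test on log2 values, which is made for values on that scale, was an alternative, as were limma 3.58.1, DESeq2 1.42.0, other factors and filters, a loess GC correction (span 0.4, genes with mean log2 CPM above 3), subtraction of the receptor-gene background rate in proportion to exon length, and each sample left out. Scripts ran in Python 3.11.15 with SciPy 1.17.1 and matplotlib 3.10.9. Only the edgeR fit with TMM factors, without and with the GC correction, was run on simulated data. The simulation gave every gene the same dispersion and held no background reads, and the other alternatives were not simulated.

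Members and lists were chosen with earlier results of these data known. Beside the members and *Mmp13*, the first 4 genes of each list as written were named, plus the 3 genes closest in pattern to *Acp5*, *Tnfsf11* and *Tnfrsf11b*, of which 2 genes are not reported here. Genes were matched to GENCODE M21 by Ensembl identifier for 99.8% of the table, and promoter windows came from RefSeq for 6 members. Samples of 1 genotype differed by far more than counting error (chi-square per degree of freedom 24.1 or more), so that tests used the spread between samples. In edgeR that spread enters through dispersions estimated with information from other genes. Each edgeR SE was the size of the log2 fold change over the square root of the F statistic of its test. The SDs of normalized counts are given beside the means and did not enter the edgeR test. No batch is given.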

Additional observations from a re-analysis of the deposited data

How the results depend on the processing

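No paired analysis was possible because the genotypes share only replicate number 2, which is fewer than 2 shared numbers. Of 168 log2 fold changes of single members under alternatives, 154 kept direction and side of the threshold, 14 lost the call and 0 reversed. Members called higher numbered 10. The study's gene-by-gene test, adjusted here by Benjamini-Hochberg, gave 6, beside 4268 of 24534 genes tested. It lost *Tnfsf11* (adjusted p = 0.0631), *Tnfrsf11a* (0.146), *Oscar* (0.0561) and *Dcstamp* (0.0709). The study itself used Storey's q-value, which was not run here, so these losses are not those of its own procedure. Below, the study's test means the version run here. With a sample left out, 9 to 10 members were called higher, beside 5829 to 6905 genes of 24934 to 26956 tested. No member was called lower under any alternative run. With 10 counts required in every sample, *Calcr* and *Dcstamp* were not tested and the other 8 were called higher, beside 5104 of 19564 genes tested. The difference in the log2 ratio of *Tnfsf11* to *Tnfrsf11b* reversed after the GC correction (0.18) and without WT replicate 4 (0.057) or *Mmp13*-/- replicate 1 (0.061), in a range of −0.19 to 0.061 with a sample left out. In the lists, genes called moved from 1 higher in RANK signalling to 3 with the GC correction, with 10 counts in every sample, with background subtraction and with both corrections, to 5 with upper-quartile factors and to 0 with limma and the study's test (0 to 2 with a sample left out), and from 15 lower to 4 with the GC correction or both corrections and 8 with total counts. In acid secretion 4 higher became 9 with the GC correction or both corrections, 1 with limma and the study's test, and 1 to 6 with a sample left out, and 8 lower became 2, 1 with both corrections and 4 with total counts. Among precursor genes 3 higher became 8 with the GC correction or both corrections, 5 with background subtraction or upper-quartile factors and 2 to 5 with a sample left out, and 1 lower became 2 without a filter, 0 with the GC correction, both corrections, background subtraction, 10 counts in every sample, limma, the study's test, total counts or upper-quartile factors, and 0 to 2 with a sample left out. Among upstream regulators 2 higher became 4 with the GC correction and 2 to 3 with a sample left out, and 8 lower became 2 with it and 4 with both corrections. The causes were not tested. At 3 counts a gene stood at 0.139 or less CPM, and reads are not independent molecules, so that this floor covers counting error only.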

Other observations

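Genes whose log2 CPM followed that of a member most closely over the 6 samples were sought among the 10759 tested genes whose log2 CPM averaged above 3. Since all 6 samples carry the genotype difference and the shared library factors, the coefficients describe these samples and were not tested. For *Acp5* they included *Igsf10* (Pearson's r 0.993) and *Edil3* (0.992), with 203 genes above 0.95. For *Tnfsf11* they were *Timp3*, an inhibitor of metalloproteinases (0.989), *4933423P22Rik* (0.985) and *Apod* (0.977), with 18 genes above 0.95. For *Tnfrsf11b* they were *Unc13b* (0.995), *Arl13b* (0.994) and *Apod* (0.992), with 71 genes above 0.95. *Apod*, which encodes apolipoprotein D, was the gene that the lists of ligand and decoy shared, and it rose by 1.28 on the log2 scale (standard error 0.19, adjusted p = 0.000535 by edgeR).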
